A study of Mus musculus with 6 samples.

Results

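The genes described here belong to B cell precursors and to immature and transitional B cells. They are 10 named genes: Ly6d, Il7r, Vpreb1, Vpreb3, Igll1, Rag1, Rag2, Dntt, Cd24a and Cnn3. Every probe set annotated to 1 of these symbols was taken, which gave 17 of the 12422 probe sets that are not controls. RNA of whole splenic B cells from adult mice was hybridised to 6 Affymetrix MG_U74Av2 arrays, with 2 arrays per genotype. CBA mice served as the wild type. They were compared with Xid mice of the strain CBA/N, whose Btk carries the R28C mutation, and with Btk KO mice. The Btk KO allele came from Btk KO/SW129 mice and had been crossed back to CBA for 9 generations. No group was treated. The mutation of CBA/N and other differences of that strain cannot be told apart here, and the same holds for the knockout and what remains of its donor strain. The first array of each group belongs to a first set of chips (run 1) and the second, with RNA from new mice, to a later set (run 2). Run here names the set of chips and not a day of hybridisation. Pooling of animals and the way the B cells were purified are not stated in the labels, so the tests measure the spread between these samples.

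B cells arise from precursors that first rearrange the immunoglobulin heavy chain gene and then a light chain gene. The Rag1 and Rag2 proteins cut the DNA for this joining, and terminal transferase, encoded by Dntt, adds bases at the joints. Before a light chain exists, Vpreb1 and Igll1 (lambda 5) form a surrogate light chain, and Il7r carries the growth signal of the cytokine IL-7. Cells that leave the bone marrow pass through transitional stages in the spleen before they become mature follicular or marginal zone cells. Btk, a Tec family kinase, relays signals of the pre-B cell receptor and the B cell receptor, and mice that lack its function have fewer mature follicular B cells.

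Array medians ranged from 32.7 to 37.7 in scaled intensity units. The Btk probe set 92668_at measured 874.1 and 749.8 in CBA, 841.0 and 643.9 in Xid, and 276.1 and 173.6 in Btk KO. Both Btk KO arrays thus lay below the other 4. The position of its probes relative to the deletion was not examined. One Btk KO array, that of run 1, differed in RNA quality. Its Gapdh control probe sets gave a ratio of 3' over 5' intensity of 10.4, against 0.756 to 1.61 on the other 5, and it was hybridised on a day of its own. All 11 of the listed B cell markers found on the array had a tested probe set, and their summed intensity was 29049 to 44342 across the 6 arrays. In bulk RNA fewer cells of a type and less RNA per cell cannot be told apart.

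Ly6d, Il7r, Dntt, Cnn3 and the bright Vpreb3 probe set had higher intensity in both Btk-defective lines than in CBA, while Cd24a was slightly lower. With limma adjusted over all 7453 probe sets tested, no member passed 0.05 in any comparison unless the run entered the model as a block. With the run block Dntt and Il7r rose in Btk KO against CBA, and no member passed in Xid. That Dntt probe set was dim in CBA and reached the test only through its higher Xid and Btk KO arrays. Both Igll1 probe sets, 1 of Vpreb1, 1 of Rag1, Il7r and every Dntt probe set were highest on the Btk KO array of run 2. For Igll1 and that Vpreb1 probe set the other Btk KO array lay within the range of the other groups. Of the 17 probe sets 12, standing for 9 genes, were bright enough for the test, with a mean intensity above about 19.8. The other 5 were dim, and they include the only Rag2 probe set. A log2 difference below is that of log2(intensity + 6), which understates the change of dim probe sets.

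**Figure D1:**
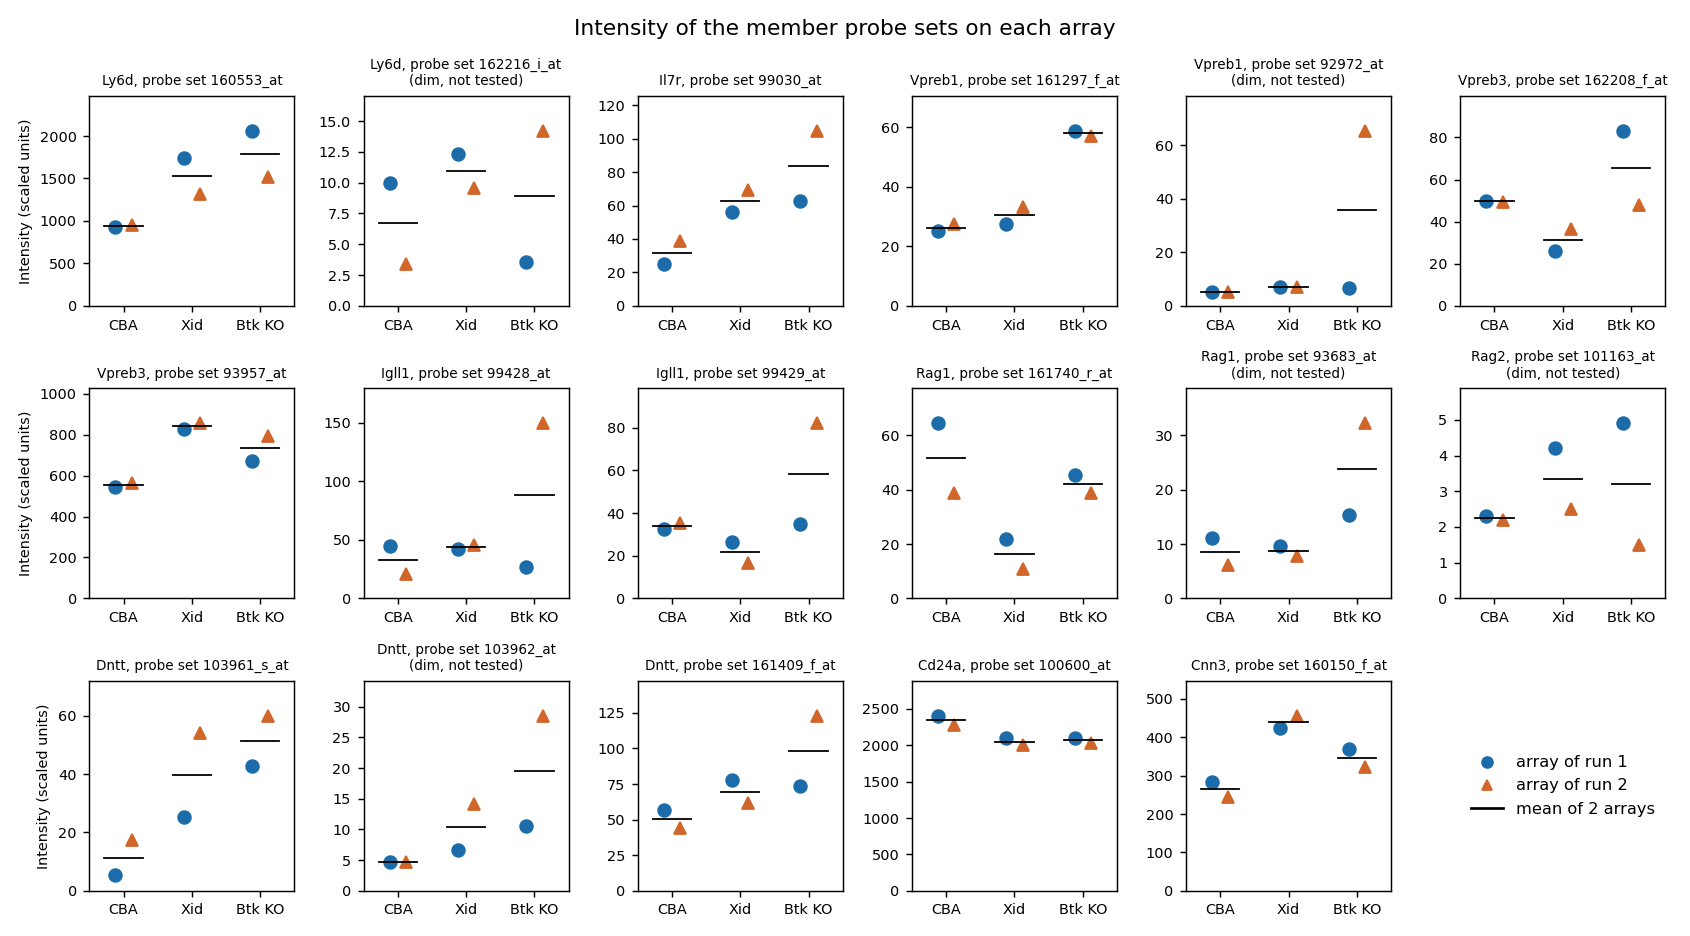
Intensity (vertical axis, scaled units, from 0) of each of the 17 member probe sets in CBA, Xid and Btk KO. Circles are arrays of run 1, triangles arrays of run 2, and a bar is the mean of 2 arrays. The CBA arrays lie lowest for Ly6d 160553_at (931.5 and 948.7), Il7r, Dntt 103961_s_at, Vpreb3 93957_at and Cnn3, and the Btk KO triangle stands alone for Vpreb1 92972_at (65.3) and Igll1 99428_at (149.4).

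The first members are those of the surrogate light chain and the related gene Vpreb3. Igll1 and Vpreb1 are neighbours on chromosome 16, with no other gene listed between them in the RefSeq gene table of GRCm38.p6. Vpreb3 lies on chromosome 10, and its protein binds immunoglobulin chains inside the cell without being part of the surrogate light chain at the surface. Their promoters are shown because the results on these 3 genes differ by probe set: both Igll1 probe sets and the dim Vpreb1 probe set were highest on the Btk KO array of run 2, the tested Vpreb1 probe set was about equal on both Btk KO arrays, and the bright Vpreb3 probe set was highest in Xid. Each window runs from 250 bases before to 50 bases after a RefSeq start site, on the strand of the gene, at chr16:16863936-16864235 (minus strand) for Igll1, chr16:16869206-16869505 (minus) for Vpreb1 and chr10:75948050-75948349 (plus) for Vpreb3, all GRCm38.p6. For Vpreb3 this is an inner start site of the gene model. Capitals mark matches to any of 4 motifs searched on both strands: the octamer ATGCAAAT, an EBF motif CCCNNGGG, the E2A type E-box CAGGTG and an Ikaros core TGGGAA.
Igll1: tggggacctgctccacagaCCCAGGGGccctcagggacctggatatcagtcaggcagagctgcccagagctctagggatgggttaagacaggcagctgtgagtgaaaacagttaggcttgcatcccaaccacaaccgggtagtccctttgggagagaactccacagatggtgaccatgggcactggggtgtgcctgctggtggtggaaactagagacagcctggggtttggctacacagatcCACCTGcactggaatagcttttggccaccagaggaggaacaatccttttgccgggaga
Vpreb1: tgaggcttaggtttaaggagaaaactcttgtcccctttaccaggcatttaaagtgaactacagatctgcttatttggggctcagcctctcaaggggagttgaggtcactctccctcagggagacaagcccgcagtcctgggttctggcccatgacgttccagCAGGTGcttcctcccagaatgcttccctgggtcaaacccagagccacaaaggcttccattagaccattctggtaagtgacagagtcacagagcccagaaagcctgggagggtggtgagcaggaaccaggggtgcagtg
Vpreb3: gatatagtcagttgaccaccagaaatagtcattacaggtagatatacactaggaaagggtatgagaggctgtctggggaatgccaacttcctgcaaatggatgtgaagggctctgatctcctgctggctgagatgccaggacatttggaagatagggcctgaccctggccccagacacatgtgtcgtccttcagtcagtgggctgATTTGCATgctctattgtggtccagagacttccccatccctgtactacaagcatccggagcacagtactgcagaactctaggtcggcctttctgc

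The Igll1 window holds 1 EBF match (CCCAGGGG) and 1 E-box (CACCTG on the gene's strand), the Vpreb1 window 1 E-box (CAGGTG), and the Vpreb3 window 1 octamer (ATTTGCAT on the gene's strand). No 2 of these matches overlap. Among all 32851 promoter windows of this length, 1.74% hold an octamer, 13.7% the EBF letters, 20.2% the E-box and 25.6% the Ikaros core. An octamer near the start is usual for immunoglobulin genes and is a rare match among all windows. A match describes the letters and does not show that a factor binds. The windows of Il7r, Rag2 and Dntt held none of the 4 motifs. RefSeq promoter windows were matched for 8 of the 10 genes, and Ly6d and Cd24a were not among them. Mice carry Vpreb2 as a close copy of Vpreb1. Their 2 windows share an identical stretch of 91 bases, against 7 bases between Vpreb1 and Vpreb3, and no probe set carries the single symbol Vpreb2, so a Vpreb1 signal may include Vpreb2.

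Igll1 has 2 tested probe sets. Igll1 99428_at measured 45.0 and 20.7 in CBA, 42.0 and 45.3 in Xid, and 26.5 and 149.4 in Btk KO, for runs 1 and 2. Igll1 99429_at measured 32.5 and 35.1 in CBA, 26.6 and 16.7 in Xid, and 34.8 and 82.0 in Btk KO. On both probe sets the Btk KO array of run 2 was the highest of the 6, and the other Btk KO array lay among or near the arrays of the other groups. Against CBA the log2 differences in Btk KO were 0.95 ± 0.68 and 0.59 ± 0.42 (SE), and neither passed with limma, with or without the run block. Within run 1 they were -0.65 and 0.08, and within run 2 they were 2.54 and 1.10. Igll1 99428_at passed in a single setting, in the blocked model that left out Btk KO of run 1 (2.28 ± 0.41, limma adjusted p = 0.0478), and with the other 5 arrays, without the Btk KO array of run 2, its difference was -0.18. Against Xid, Igll1 99429_at was higher on both Btk KO arrays (1.14 ± 0.42, limma adjusted p = 0.998). Igll1 resembles lambda light chain constant genes, and signal shared with them was not tested.

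Vpreb1 has a tested and a dim probe set. Vpreb1 161297_f_at, of a type whose probes can match a family of related transcripts, measured 25.2 and 27.4 in CBA, 27.5 and 33.4 in Xid, and 58.8 and 57.1 in Btk KO. Both Btk KO arrays were about equal and lay above the 4 others, at 2.20 times the CBA mean and 1.90 times the Xid mean. The log2 difference was 0.99 ± 0.28 against CBA (limma adjusted p = 0.305, or 0.132 with the run block) and 0.82 ± 0.28 against Xid (0.998, or 0.549 with the block). The dim Vpreb1 92972_at measured 5.3 and 5.3 in CBA, 7.2 and 7.2 in Xid, and 6.5 and 65.3 in Btk KO. Here the 2 Btk KO arrays differed and 5 of the 6 arrays lay near the pseudocount of 6, so the pattern was that of Igll1 and not of the other Vpreb1 probe set. The Btk KO array of run 1, which lacked this signal, had the deviating Gapdh controls, and the part of RNA quality in the gap between the arrays was not tested.

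Vpreb3, at its bright probe set 93957_at, measured 544.4 and 564.0 in CBA, 825.6 and 854.7 in Xid, and 670.1 and 795.2 in Btk KO. The groups did not overlap: Xid was highest, Btk KO intermediate and CBA lowest. Xid stood at 1.52 times the CBA mean, with a log2 difference of 0.59 ± 0.19 that was 0.60 in run 1 and 0.59 in run 2 (limma adjusted p = 0.742, or 0.247 with the run block). In Btk KO the difference from CBA was 0.39 ± 0.19. The dimmer Vpreb3 162208_f_at measured 49.8 and 49.4 in CBA, 26.2 and 36.7 in Xid, and 83.1 and 48.1 in Btk KO. It had the opposite sign in Xid, at -0.58 ± 0.33, so the 2 probe sets of Vpreb3 disagree there, and the level of the transcript in Xid rests on the brighter probe set.

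The next members act in V(D)J joining. Dntt 103961_s_at measured 5.3 and 17.3 in CBA, 25.3 and 54.1 in Xid, and 42.8 and 59.9 in Btk KO. Both CBA arrays were the lowest, and in each run the order was CBA, Xid, Btk KO. Against CBA the log2 difference was 1.81 ± 0.48 in Btk KO, at 2.11 in run 1 and 1.50 in run 2 (limma adjusted p = 0.273), and with the run block Dntt rose (SE 0.32, limma adjusted p = 0.0366). In Xid it was 1.42 ± 0.48, at 1.47 and 1.37 within the runs (limma adjusted p = 0.852, or 0.168 with the block). The CBA mean of 11.3 lies below the level of about 19.8 that marks dim probe sets, so the size depends on the pseudocount. Both CBA arrays lay below that level, so the probe set reached the test only through the higher Xid and Btk KO arrays. With a pseudocount of 1 the Btk KO difference was 2.27 and with 32 it was 0.95.

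The further Dntt probe sets lay in the same direction. Dntt 161409_f_at measured 56.6 and 43.9 in CBA, 77.6 and 61.8 in Xid, and 73.6 and 122.8 in Btk KO. Its log2 difference in Btk KO was 0.86 ± 0.31, at 0.35 in run 1 and 1.37 in run 2 (limma adjusted p = 0.454, or 0.228 with the block). The dim Dntt 103962_at measured 4.7 and 4.7 in CBA, 6.7 and 14.2 in Xid, and 10.5 and 28.5 in Btk KO. On all 3 Dntt probe sets both CBA arrays lay below all 4 arrays of the other lines, and the Btk KO array of run 2 was the highest.

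Rag1 161740_r_at measured 64.4 and 38.7 in CBA, 22.0 and 10.7 in Xid, and 45.4 and 38.9 in Btk KO. Both Xid arrays were below the 4 others, with a log2 difference from CBA of -1.38 ± 0.38 (-1.33 and -1.42 within the runs, limma adjusted p = 0.577, or 0.157 with the run block). The dim Rag1 93683_at did not show this: it measured 11.1 and 6.1 in CBA, 9.7 and 7.8 in Xid, and 15.4 and 32.2 in Btk KO. There the CBA and Xid arrays overlapped and both Btk KO arrays lay above them. The 2 Rag1 probe sets therefore disagree, and a lower Rag1 transcript in Xid is not shown. Rag2, the partner of Rag1 and its neighbour on chromosome 2, read between 1.5 and 4.9 on all arrays, below the pseudocount of 6, and no order can be read from it.

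Of the partners of these enzymes, 7 of the 13 listed V(D)J joining and end-joining genes were tested, and none passed in any comparison with limma, with or without the run block. Their median log2 difference was -0.21 in Xid and -0.12 in Btk KO, against 0.01 for all tested probe sets in either comparison. Hmgb2, a DNA bending protein of dividing cells that also assists the Rag proteins, measured 68.5 and 50.5 in CBA, 59.4 and 41.2 in Xid, and 95.3 and 73.2 in Btk KO. Both Btk KO arrays were higher than the 4 others.

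Il7r, the alpha chain of the receptor for IL-7, has 1 probe set, 99030_at. It measured 24.8 and 38.8 in CBA, 55.9 and 69.0 in Xid, and 62.7 and 104.6 in Btk KO. Both CBA arrays lay below the 4 others, and the Xid and Btk KO arrays overlapped. Btk KO stood at 2.63 times the CBA mean, with a log2 difference of 1.23 ± 0.34, at 1.16 in run 1 and 1.30 in run 2 (limma adjusted p = 0.279). With the run block Il7r rose, just inside the threshold (SE 0.24, limma adjusted p = 0.0499). Xid stood at 1.96 times the CBA mean, with a difference of 0.88 ± 0.34 (limma adjusted p = 0.998, or 0.287 with the block).

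The calls of Dntt and Il7r in Btk KO needed the run block and nearly all arrays. With the block and 1 array left out, adjusted p for Il7r was 0.112 to 0.224, and for Dntt 0.0831 to 0.195 in 5 of the 6 cases. Without the Btk KO array of run 2 Dntt passed (0.0311), and that fit rests on the Btk KO array with deviating Gapdh controls. T cells also carry Il7r. The 13 T cell markers on the array summed to 793.2 and 1110.9 in CBA, 945.3 and 1018.6 in Xid, and 982.7 and 1193.5 in Btk KO, so these groups overlapped over all arrays. Within each run the Btk KO sum was above the CBA sum. The median log2 difference of the 8 tested T cell markers was 0.42 in Btk KO and 0.12 in Xid, against 0.01 for all tested probe sets. Cd2, the brightest of them, had a difference of -0.41 in Btk KO. None of these 13 markers was at or below the pseudocount on all arrays. Of the 8 tested, 1 rose in Btk KO with the run block, where 2.23% of all tested probe sets passed. This was Zap70 (1.42 ± 0.48, limma adjusted p = 0.4, or 0.0118 with the block). The part of T cells in the Il7r signal was not tested.

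Of 13 listed genes that act with the IL-7 receptor 9 were tested, and their median log2 difference was -0.04 in Xid and -0.08 in Btk KO. Socs2, a feedback inhibitor of cytokine signals, measured 17.7 and 16.9 in CBA, 32.2 and 26.9 in Xid, and 46.7 and 41.8 in Btk KO. Its groups did not overlap, with CBA lowest and Btk KO highest (1.11 ± 0.30 in Btk KO, limma adjusted p = 0.277, or 0.122 with the run block). Cish, another such inhibitor, measured 27.2 and 24.6 in CBA, 53.0 and 36.4 in Xid, and 29.9 and 27.9 in Btk KO. In Btk KO 1 of the 9 fell with the run block, where 2.23% of all tested probe sets passed in either direction: Bcl2, the survival gene, which measured 434.8 and 399.0 in CBA, 253.2 and 169.9 in Xid, and 195.5 and 164.6 in Btk KO. Its log2 difference was -1.19 ± 0.24 in Btk KO (limma adjusted p = 0.152, or 0.019 with the block) and -0.98 ± 0.24 in Xid (0.482, or 0.0975 with the block).

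Ly6d, Cd24a and Cnn3 mark immature and transitional cells by other functions. Ly6d encodes a lipid-anchored surface protein that marks the commitment of lymphoid progenitors to the B lineage. Ly6d 160553_at measured 931.5 and 948.7 in CBA, 1743.2 and 1311.6 in Xid, and 2059.7 and 1512.2 in Btk KO. Both CBA arrays lay well below the 4 others, and Xid and Btk KO overlapped. Btk KO stood at 1.90 times the CBA mean, with a log2 difference of 0.90 ± 0.24, at 1.14 in run 1 and 0.67 in run 2 (limma adjusted p = 0.274, or 0.0517 with the run block). Xid stood at 1.62 times the CBA mean, with a difference of 0.68 ± 0.24 (limma adjusted p = 0.942, or 0.261 with the block). The other Ly6d probe set, 162216_i_at, read at most 14.2 and was not tested.

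Cd24a encodes the heat-stable antigen, a surface protein that is high on immature and transitional B cells and falls as they mature. Its only probe set, 100600_at, measured 2403.5 and 2280.5 in CBA, 2098.5 and 2002.2 in Xid, and 2104.9 and 2029.9 in Btk KO. Both CBA arrays were above the 4 others, by a small margin: the log2 difference was -0.19 ± 0.20 in Xid and -0.18 ± 0.20 in Btk KO, smaller than its standard error. Cd24a therefore went the other way from Ly6d, Il7r and Dntt. Erythroid precursors and neutrophils also carry Cd24a. The 12 erythroid markers on the array summed to 6232.9 and 8398.1 in CBA and to 23666 and 11710 in Btk KO, and the 12 neutrophil markers to 463.5 and 413.9 in CBA and 1155.1 and 1859.2 in Btk KO. In Xid the erythroid sums were 9743.0 and 8384.6 and the neutrophil sums 568.1 and 434.9. The B cell markers had a median of -0.16 in Xid and -0.52 in Btk KO. The part of these cells in the Cd24a signal was not tested.

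Cnn3 encodes calponin 3, an actin-binding protein found in B cell precursors and in stromal and smooth muscle cells. Cnn3 160150_f_at measured 283.9 and 244.3 in CBA, 423.6 and 455.3 in Xid, and 369.6 and 321.4 in Btk KO. The groups did not overlap, and the order, Xid above Btk KO above CBA, was that of Vpreb3 93957_at. Xid stood at 1.66 times the CBA mean, with a log2 difference of 0.72 ± 0.19, at 0.57 and 0.88 within the runs (limma adjusted p = 0.533, or 0.171 with the run block). In Btk KO the difference was 0.38 ± 0.19. The 17 stromal, smooth muscle and endothelial markers on the array summed to 891.9 to 1023.6 in CBA, 1012.6 to 1115.5 in Xid and 908.2 to 1004.3 in Btk KO. Only 6 of these 17 had a tested probe set, with a median log2 difference of 0.25 in Xid and 0.09 in Btk KO, and none passed. Col1a1, a fibroblast collagen, measured 42.1 and 31.1 in CBA, 68.1 and 59.7 in Xid, and 73.0 and 67.5 in Btk KO, with differences of 0.72 ± 0.26 and 0.85 ± 0.26. Col1a2 measured 224.5 and 226.6 in CBA, 260.7 and 279.4 in Xid, and 257.0 and 258.9 in Btk KO. Both collagens were above CBA on all 4 arrays of the Btk-defective lines. The remaining tested markers, Cnn2, Pecam1, Bgn and Tagln, had log2 differences of -0.34, 0.18, 0.01 and -0.05 in Btk KO. In Xid these were -0.0045, 0.30, 0.25 and 0.14. Acta2 was at or below the pseudocount on all arrays. The part of such cells in the Cnn3 signal was not tested.

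**Figure D2:**
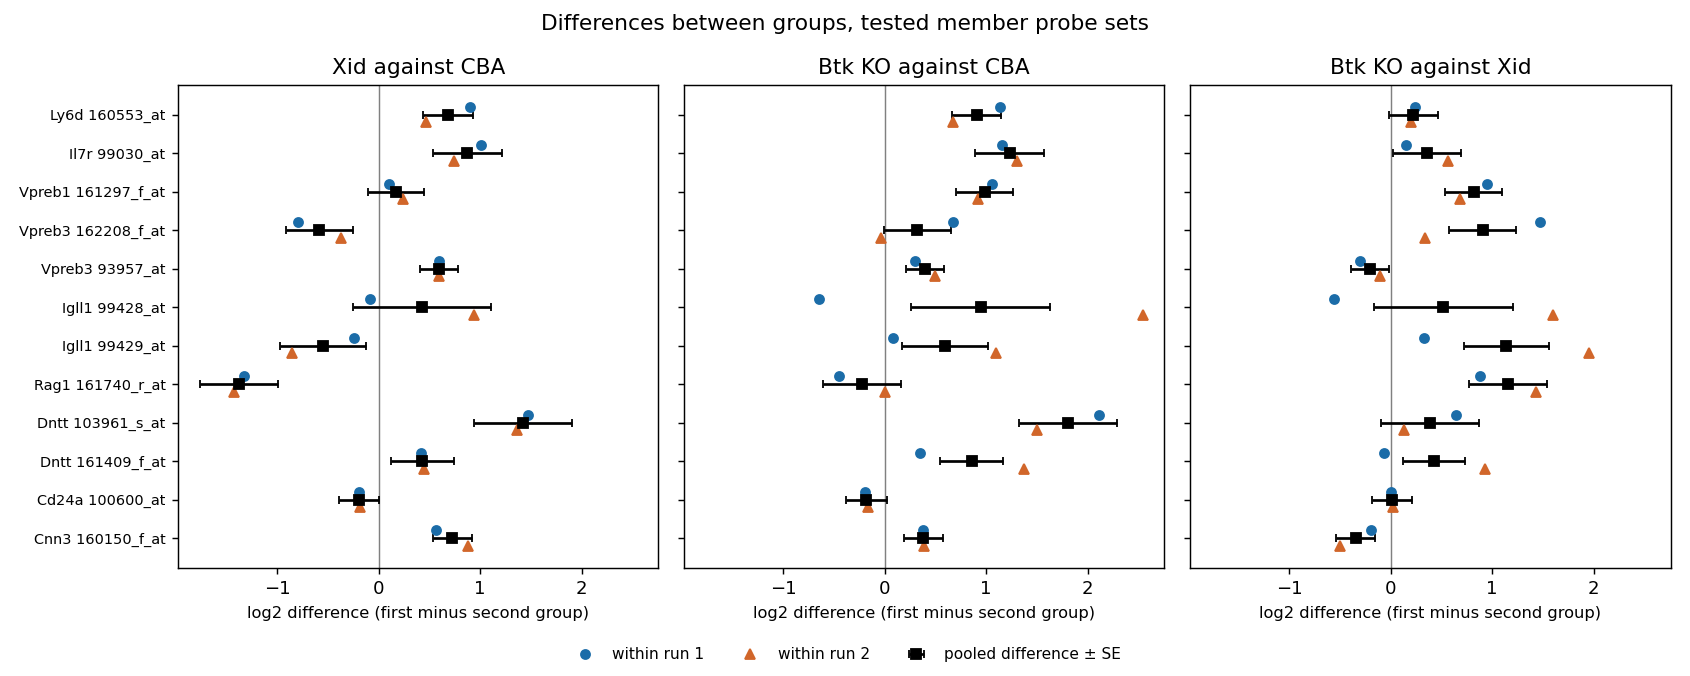
Log2 differences (horizontal axis, first minus second group) of the 12 tested member probe sets in the 3 comparisons. Squares are pooled differences with the standard error of the limma model without the run block, circles the difference within run 1 and triangles within run 2. Dntt 103961_s_at and Il7r lie right of 0 in both runs in Xid (1.42 and 0.88 pooled) and Btk KO (1.81 and 1.23), and the runs lie far apart for Igll1 99428_at in Btk KO (-0.65 and 2.54).

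Setting Xid beside CBA asks how these transcripts stand when Btk is mutated but its transcript is present. None of the 12 tested member probe sets passed with limma (0 of 12, where 0.0671% of all 7453 passed), and 6 had an unadjusted p under 0.05, where 4.43% of all did. With the run block none passed (0.483% of all did) and 6 had an unadjusted p under 0.05 (8.1% of all). Over all 17, dim ones included, both Xid arrays lay above both CBA arrays for 10, where 17.9% of all 12422 probe sets did. They lay below for 4, where 13.5% did. The 10 include Rag2, whose values lie below the pseudocount, and Vpreb1 92972_at and Dntt 103962_at, which read 5.3 and 4.7 in CBA. The median log2 difference of the 17 was 0.43, against 0.02 for all 12422 probe sets. Of the 12 tested, 7 were above (17% of all 7453) and 4 below (14.4%). Several members are probe sets of 1 gene and are not independent: the 7 tested above CBA stand for Ly6d, Il7r, Vpreb1, Vpreb3, Dntt and Cnn3, and the 4 below for Vpreb3, Igll1, Rag1 and Cd24a. Vpreb1 161297_f_at counts as above by 27.5 in Xid against 27.4 in CBA (0.17 ± 0.28).

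For the knockout line the same question was put to Btk KO and CBA. Without the run block none of the 12 passed with limma, where 0.174% of all passed, and 5 had an unadjusted p under 0.05 (8.83% of all). With the block Dntt 103961_s_at and Il7r passed, 2 of 12, where 2.23% of all did, and 6 had an unadjusted p under 0.05 (15.1% of all). Dntt 103961_s_at reached the test only through its higher Xid and Btk KO arrays, so its pass cannot be weighed against that share. Over all 17 both Btk KO arrays lay above both CBA arrays for 10 (21.6% of all probe sets) and below for 1, Cd24a (13% of all). The 10 include the dim Vpreb1 92972_at (6.5 in Btk KO against 5.3 in CBA in run 1), Dntt 103962_at and Rag1 93683_at. Some are probe sets of 1 gene and are not independent: the 10 stand for Ly6d, Il7r, Vpreb1, Vpreb3, Rag1, Dntt and Cnn3. Of the 12 tested, 7 were above (20% of all 7453) and 1 below (16%). The median log2 difference was 0.86, against 0.05 for all 12422. Both comparisons use the same 2 CBA arrays, so they are not independent of each other.

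Setting Btk KO beside Xid asks whether the lines differ from each other. None of the 12 passed with limma, without the block (0.0403% of all passed) or with it (0.188% of all), and 4 had an unadjusted p under 0.05 in each fit (3.61% and 7.31% of all). These 4 were Vpreb1 161297_f_at, Vpreb3 162208_f_at, Igll1 99429_at and Rag1 161740_r_at, at 0.82, 0.90, 1.14 and 1.15 on the log2 scale. All are dim to moderate probe sets, below 90 on every array. Over the 17, both Btk KO arrays lay above both Xid arrays for 5 (15.3% of all) and below for 2, Vpreb3 93957_at and Cnn3 (11.6% of all). Of the 12 tested, 4 were above (14.2% of all 7453) and 2 below (12.3%). For Ly6d, Il7r, Dntt and Cd24a the differences of 0.22, 0.36, 0.39 and 0.01 were smaller than or close to their standard errors of 0.24, 0.34, 0.48 and 0.20.

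Other genes of B cell precursors and progenitors were read from a separate list of 22, of which 18 were on the array and 10 were tested. None passed with limma in any comparison, with or without the run block. Their median log2 difference was 0.23 in Xid and 0.29 in Btk KO, against 0.01 for all tested probe sets. Flt3, the receptor kinase of early progenitors and dendritic cells, measured 141.8 and 203.8 in CBA, 161.3 and 310.4 in Xid, and 274.9 and 315.3 in Btk KO. Hes1, a repressor that Notch signals switch on, measured 141.2 and 153.1, 222.2 and 185.5, and 312.3 and 172.8 in the same order. Not all listed genes were higher in both lines. Myb and Lef1 had log2 differences from CBA of -0.31 and -0.16 in Xid, and of 0.26 and 0.32 in Btk KO. Runx1 and Ebf1 had differences of 0.12 and 0.25 in Xid, and of -0.45 and -0.21 in Btk KO. Cd93, the antigen AA4.1 by which transitional cells are usually recognised, measured 55.7 and 60.8 in CBA, 70.0 and 76.5 in Xid, and 77.2 and 72.1 in Btk KO. All 4 arrays of the Btk-defective lines lay above CBA for Cd93, with log2 differences of 0.30 ± 0.23 and 0.33 ± 0.23.

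All 10 of the listed transcription factors of the precursor genes found on the array were tested, none passed in any comparison with limma, with or without the run block, and the median was 0.02 in Xid and -0.20 in Btk KO. Ebf1, which with E2A switches on Igll1 and Vpreb1, measured 298.6 and 301.4 in CBA, 402.4 and 316.1 in Xid, and 330.4 and 201.8 in Btk KO. On the Btk KO array of run 2 Ebf1 was the lowest of the 6, as were Pax5 and the summed B cell markers (29049). A link of Ebf1 to the Igll1 signal was not tested. Pax5, which keeps B cell identity, measured 921.4 and 816.4, 839.7 and 801.0, and 667.4 and 449.4. Irf8 measured 1096.2 and 1056.4 in CBA, 1588.4 and 1444.4 in Xid, and 2144.5 and 1499.9 in Btk KO, with a log2 difference of 0.73 ± 0.23 in Btk KO (limma adjusted p = 0.372, or 0.0944 with the block).

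Of 14 listed mature follicular genes 10 were tested, and none passed without the run block. Their median was -0.13 in Xid, where 4 of the 10 had a positive difference (Klf2, Cd55, Ccr7 and Ltb, at 0.61, 0.34, 0.06 and 0.01), and -0.22 in Btk KO. The general B cell markers had a median of -0.52 in Btk KO. With the block 2 fell in Btk KO and none rose, where 2.23% of all tested probe sets passed, and none passed in Xid. The 2 are Bcl2, given above, and Cxcr5, the chemokine receptor for follicle homing, which measured 419.4 and 399.2 in CBA, 227.2 and 285.7 in Xid, and 204.8 and 228.7 in Btk KO (-0.90 ± 0.20 in Btk KO, limma adjusted p = 0.181, or 0.0443 with the block). Fcer2a, the IgE receptor CD23 that appears on later transitional and follicular cells, measured 1406.8 and 2048.0 in CBA, 864.2 and 1563.3 in Xid, and 875.8 and 1211.6 in Btk KO. In each run CBA was the highest for Fcer2a. The summed intensity of the follicular list was 8962.1 to 9379.0 in CBA, 7943.7 to 9066.1 in Xid and 6554.6 to 7485.6 in Btk KO.

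Macrophage markers were higher in both Btk-defective lines, and part of the neutrophil markers in Btk KO. The 14 macrophage and monocyte markers on the array summed to 2574.1 and 3834.0 in CBA, 5865.2 and 8806.4 in Xid, and 9415.6 and 12504 in Btk KO. Of 12 tested, 3 rose in Btk KO without the run block and 9 with it, where 0.174% and 2.23% of all tested probe sets passed, and 6 rose in Xid with it (0.483% of all). Vcam1, an adhesion molecule of red pulp macrophages and stroma, rose in Btk KO (2.27 ± 0.23, limma adjusted p = 0.025). Of 8 tested neutrophil markers 2 rose in Btk KO against CBA without the block and 4 with it, and none passed in Xid against CBA, where the median was 0.17. Camp, a granule peptide made by neutrophil precursors, measured 39.4 and 58.8 in CBA, 56.3 and 45.1 in Xid, and 271.1 and 324.2 in Btk KO. Its sum with the other 11 neutrophil markers was highest on the Btk KO array of run 2. The same array was highest for the macrophage, T cell and dendritic sums, and for Igll1, Dntt and Vpreb1 92972_at.

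The erythroid sum was highest on the Btk KO array with the deviating Gapdh controls, and none of the 11 tested erythroid markers passed with limma, with or without the block. Their median log2 difference in Btk KO was 1.40 against CBA and 1.04 against Xid. Of the 11, 9 were higher on both Btk KO arrays than on both CBA arrays, where 20% of all tested probe sets were. Against Xid it was 8 of the 11, where 14.2% were. The 8 plasmacytoid and other dendritic markers summed to 843.4 and 954.0 in CBA, 795.8 and 1051.2 in Xid, and 920.9 and 1149.2 in Btk KO, and none passed. None of the erythroid, neutrophil, macrophage or dendritic markers on the array was at or below the pseudocount on all arrays. Proliferation genes, which dividing precursors would carry, summed to 2121.3 to 2144.0 in CBA, 1859.3 to 1903.1 in Xid and 2155.1 to 2739.8 in Btk KO, highest in run 1. None of the 17 tested passed, and their median was -0.20 in Xid and 0.31 in Btk KO. None of the 11 B cell markers passed. On both Btk KO arrays 9 were lower than on both CBA arrays, where 16% of all tested probe sets were. The part of these other cells in the members' levels was not tested.

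**Figure D3:**
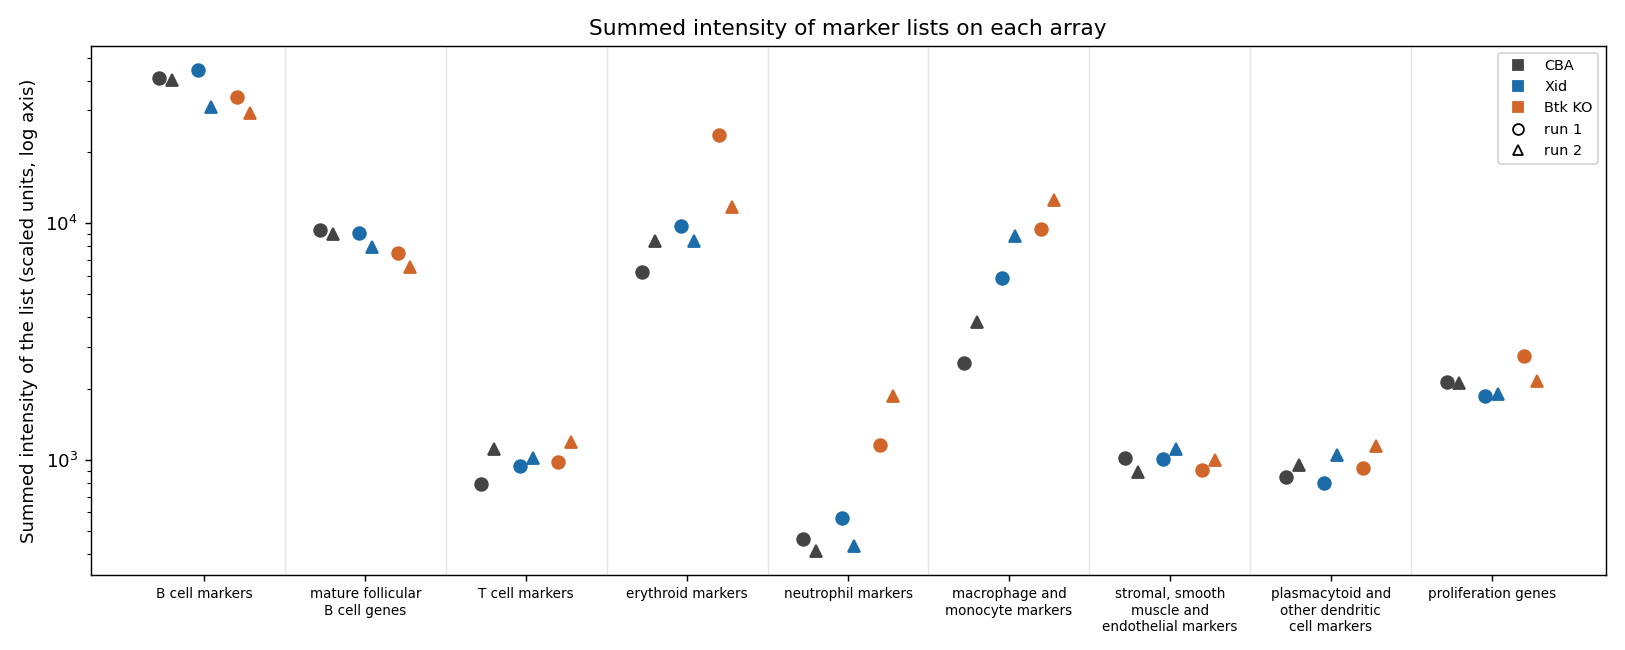
Summed intensity (vertical axis, log scale, scaled units) of each list of B cell, follicular, other lineage and proliferation genes on each array. Colours stand for CBA, Xid and Btk KO, circles for run 1 and triangles for run 2. Macrophage markers are lowest in CBA (2574.1 and 3834.0) and highest in Btk KO, neutrophil markers stand apart in Btk KO (1155.1 and 1859.2), and T cell and stromal sums overlap between groups.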

How the data were processed

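Messenger RNA of splenic B cells was read on 6 MG_U74Av2 arrays. The deposited values are linear intensities, 1 for each probe set on each array. They had been scaled before deposit: every array had a 2% trimmed mean of 100.06. The method that summarised the probes is not given in the sources used here, and there are no detection calls. Chip lot and hybridisation day came from settings in the deposited header files.

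Probe sets took their symbol from the platform annotation, updated through the gene number. Names and sequences came from RefSeq tables of GRCm38.p6. Intensities were taken to log2 after adding 6, the 20th percentile of all values. Probe sets with a mean log2 value below the 40th percentile were left out, which kept 7453. The 3 comparisons were tested in 1 limma model of group means (limma 3.58.1 under R 4.3.3, lmFit and eBayes with trend), two-sided, with 3 residual degrees of freedom and Benjamini-Hochberg adjustment over the 7453 at 0.05. Figures used matplotlib 3.10.9. The model was checked on simulated data.

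The replicate numbers pair the samples. The design label names a first and a second set of chips, each with 1 array per group, and the header files give each set a chip lot of its own. The Btk KO array of the first set was hybridised on another day than the CBA and Xid arrays of that set. Differences of Btk KO within run 1 therefore also cross days, and the block does not account for this. Deviations from the group mean correlated between groups of 1 set at 0.31, 0.37 and 0.44. Values with the set (run) as a block stand beside a result where they change a call, and beside the members' own.

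All probe sets of the 10 members are named, with Btk and up to 4 genes of each list, those past the threshold or of smallest p. Cd93, Runx1, Fcer2a, Klf2, Cd55, Ccr7 and Ltb are named beyond this rule and were chosen after their values were seen. Every tested stromal and neutrophil marker is named too. A list gene entered by its brightest probe set. The members and lists were chosen with earlier results of these data known. The alternatives were other normalizations, pseudocounts and filters, no trend, only the groups compared, the block and each array left out.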

Additional observations from a re-analysis of the deposited data

How the results depend on the processing

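No member passed in Xid against CBA or in Btk KO against Xid under any alternative. In Btk KO against CBA the count of members went from 0 to 2 with the replicate block, to 1 (Igll1 99428_at) when the blocked model left out the Btk KO array of run 1, and was 0 to 1 with any other array left out, with or without the block. Leaving out 1 of the other 5 arrays with the block was added after seeing the data. Over all probe sets the counts were 5, 13 and 3 for Xid against CBA, Btk KO against CBA and Btk KO against Xid. The replicate block gave 36, 166 and 14. Leaving out 1 array without the block gave 0 to 9, 0 to 141 and 0 to 31. Leaving out 1 array in the blocked model gave 74, 90 and 8 (Btk KO, run 1), 71, 403 and 136 (Btk KO, run 2), 9, 23 and 11 (CBA, run 1), 16, 64 and 18 (CBA, run 2), 4, 87 and 0 (Xid, run 1) and 4, 80 and 1 (Xid, run 2). With a pseudocount of 32 they were 8, 24 and 8, and with only the groups compared 9, 0 and 0. A pseudocount of 1 gave 3 in Xid. In Btk KO against CBA quantile normalization, median centring and no filter each gave 8, a stricter filter 29 and no intensity trend 0. Apart from the numbers of arrays or probe sets that some alternatives change, the cause was not tested.

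Of the members' differences, 713 of 735 values under alternatives kept direction and side of the threshold, 4 newly passed and 18 changed sign. None of the 18 passed in either sign. Where 1 array was left out without the block, Igll1 99428_at ranged from -0.0395 to 0.894 in Xid against CBA, from -0.18 to 2.07 in Btk KO against CBA and from -0.61 to 1.65 in Btk KO against Xid. In Btk KO against CBA Vpreb3 162208_f_at ranged from -0.0394 to 0.68 and Rag1 161740_r_at from -0.55 to 0.10. In Btk KO against Xid Dntt 103961_s_at ranged from -0.0838 to 0.857 and Cd24a from -0.0217 to 0.0459, and median centring gave -0.0233 for Cd24a. In the blocked model without CBA of run 2, Igll1 99428_at was -0.63 in Xid and -0.11 in Btk KO, each against CBA. Without Xid of run 2, Igll1 99429_at was 0.0137 in Xid against CBA. Without Btk KO of run 2, Igll1 99428_at was -0.39 and Igll1 99429_at -0.0704 against CBA, and Igll1 99428_at was -0.82 and Dntt 161409_f_at -0.077 against Xid. Without Btk KO of run 1, Vpreb3 162208_f_at was -0.14 and Rag1 161740_r_at 0.029 against CBA. With 2 arrays a group, and 5 member probe sets dim, small changes of the precursor genes were not detectable.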
